A study of Mus musculus with 8 samples.

Results

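The enzymes and transporters that carry glucose to pyruvate, and pyruvate on to lactate or acetyl-CoA, were followed across mouse embryonic stem (ES) cells and 3 lines of induced pluripotent stem (iPS) cells. A list of 37 gene symbols was matched to the gene annotation of an Affymetrix mouse expression array. The matching used no measured value, but the list was chosen with earlier results of these data known. Of these, 34 symbols had at least 1 probe set, for 75 probe sets among 45101 on the array, and 31 genes passed the filter on low signals and entered the tests among 14004 genes. Gpi1, Eno1 and Galk1 were not analysed here. Gapdh had only array-control probe sets and probe sets annotated to several genes, and the probe sets of Eno2 and Pdk2 lay under the filter, so these 3 genes were measured but not tested. The cells were an ES control line and iPS lines 1, 2 and 3, all C57BL/6 and male, kept in N2B27 medium with mouse LIF and collected at passage 7 to 10. The series title describes the iPS cells as free of integration; the sources used here do not give the starting cell, the reprogramming factors or how they were delivered. Each line contributed 2 arrays, and each line is a single line, so what is particular to a line cannot be told apart from what is particular to its culture. The labels name the arrays biological replicates without saying whether they came from separate cultures, so p-values measure only how much these arrays spread, and that spread may be technical.

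Glycolysis splits glucose into pyruvate in the cytosol and yields a small amount of ATP without oxygen. The preparatory steps spend ATP to phosphorylate and cleave the sugar, the payoff steps regain it, and lactate dehydrogenase turns pyruvate into lactate so that NAD+ is restored. Pyruvate enters mitochondria and becomes acetyl-CoA through the pyruvate dehydrogenase complex, which the pyruvate dehydrogenase kinases switch off. Pluripotent stem cells are known for strong glycolysis even in oxygen, and many of these genes are textbook targets of hypoxia-inducible factor and of Myc.

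The label of pluripotent cells held in all lines. All 10 pluripotency markers examined, among them Pou5f1, Nanog, Sox2 and Esrrb, lay above the low-signal floor of 37.1 in both arrays of every line. Their summed signal was 117843 to 130556 per array, with Dppa5a the brightest in every line. Some of these markers still differed between line 2 and ES cells in limma. Utf1 fell (702 and 542 against 1164 and 1099, -0.86, adjusted p = 0.000846), as did Pou5f1 (-0.23, adjusted p = 0.0153). Klf4 rose there (0.30, adjusted p = 0.00171). No other marker of this list passed in line 2, and none passed in line 1 or line 3. Array medians were 54.1 to 64.3, and arrays of the same line correlated at 0.981 to 0.983 over log2 signals. The 3'/5' signal ratio of beta-actin, which reflects how intact the RNA and its copies were, stood at 1.74 and 1.79 in the line 2 arrays and 1.49 to 1.62 in the other 6. Summed signals of some marker lists of other cell types also differed in line 2. A trophoblast list of which 9 of 10 genes were on the array summed to 4588 and 5005 in line 2 against 2443 to 3443 in the other arrays. Of the 9, 6 lay above the floor in both line 2 arrays, against 7 in ES cells, 7 in line 1 and 6 in line 3. Tfap2c was the brightest in every line, and a sum of signals weighs the brightest genes most, so it does not show that the list as a whole rose. A fibroblast list, with 9 of 10 genes on the array, summed to 408 and 484 in line 2 against 247 to 306. Of the 9, 3 lay above the floor in line 2, against 2 in ES cells, 3 in line 1 and 1 in line 3. Of that list Pdgfrb was higher in line 2 (247 and 177 against 24.5 to 58.2; 1.68, adjusted p = 0.00169), while Col1a2 (-0.047) and Thy1 (0.73) did not pass. A neural list, also with 9 of 10 on the array, was lowest in line 2, at 1053 and 1090 against 1232 to 1625, with 7 of the 9 above the floor. Primitive endoderm markers (6 of 10 above the floor in line 2) summed to 513 to 628 and mesoderm and muscle markers (4 of 9) to 491 to 573 over all arrays. The part of these markers and of the actin ratio in the results on line 2 was not tested.

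Most glycolysis and pyruvate genes had their highest signals in iPS line 2. Against ES cells, 19 of 31 genes rose in line 2 and 1 fell, at a Benjamini-Hochberg adjusted p under 0.05 in limma, while 16.1% of all genes tested rose and 10.6% fell (26.7% in either direction). Their median log2 difference was 0.49, and that of all genes was 0.071. In line 1, 3 rose and none fell (all genes 1.21% and 1.12%, or 2.34% in either direction), and 10 had an unadjusted p under 0.05. In line 3 the direction turned: 1 rose and 6 fell (all genes 1.58% and 2.57%, or 4.15% in either direction), with a median of -0.084. With the 3 iPS lines averaged, 11 members were higher than in ES cells and none lower (all genes 4.27% and 3.03%, or 7.3% in either direction), with 18 genes at an unadjusted p under 0.05. In bulk RNA, a larger share of cells with high expression and more RNA per cell cannot be told apart.

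**Figure D1:**
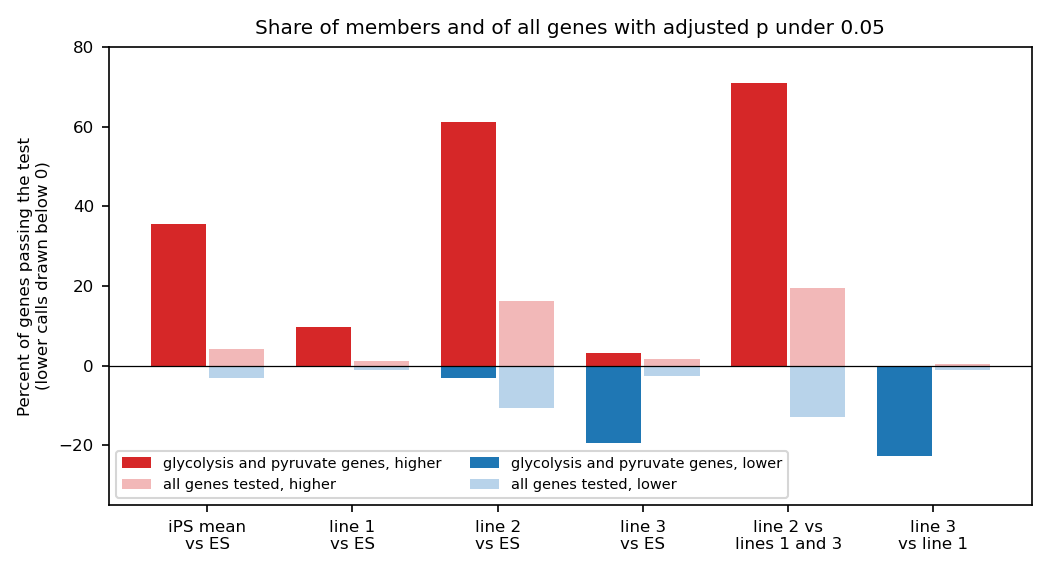
Share of the 31 glycolysis and pyruvate genes (dark bars) and of all 14004 genes tested (pale bars) with adjusted p under 0.05 in each comparison; the vertical axis is percent, with genes that were lower drawn below 0. In line 2 against ES cells 61.3% of the members were higher, and in line 3 against ES cells 19.4% were lower.

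The iPS lines were then compared with each other in the same fit of all arrays. The ES arrays entered the estimate of spread but not the differences. Between line 2 and the mean of lines 1 and 3, 22 of 31 members were higher in line 2 and none was lower (all genes 19.6% and 12.9%, or 32.5% in either direction). Between line 3 and line 1, 7 members were lower in line 3 and none higher (all genes 1.04% and 0.35%, or 1.39% in either direction), with 14 at an unadjusted p under 0.05. Array by array, both line 2 arrays lay above the other 6 for 21 members (67.7%, against 23.8% of all genes) and below them for 1 (all genes 14.3%). For only 2 members, Pfkfb3 and Pdk1, did the 6 iPS arrays all exceed both ES arrays (6.45%, against 7.17% of all genes), and for none were they all lower (all genes 5.75%).

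The mean over the iPS lines rested on line 2. Without line 2, 1 of the 11 genes higher in the mean, Pdk1, still passed (0.48, adjusted p = 0.00265), while Hk1 (-0.43) and Pgm2 (-0.44) were lower, and the median of the members was -0.019. Of all genes, 1.54% were higher and 1.96% lower in that comparison. The count of 11 was 19 without line 3, 5 without ES replicate 1, 5 without ES replicate 2 and 0 when the 3 line means served as the samples.

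**Figure D2:**
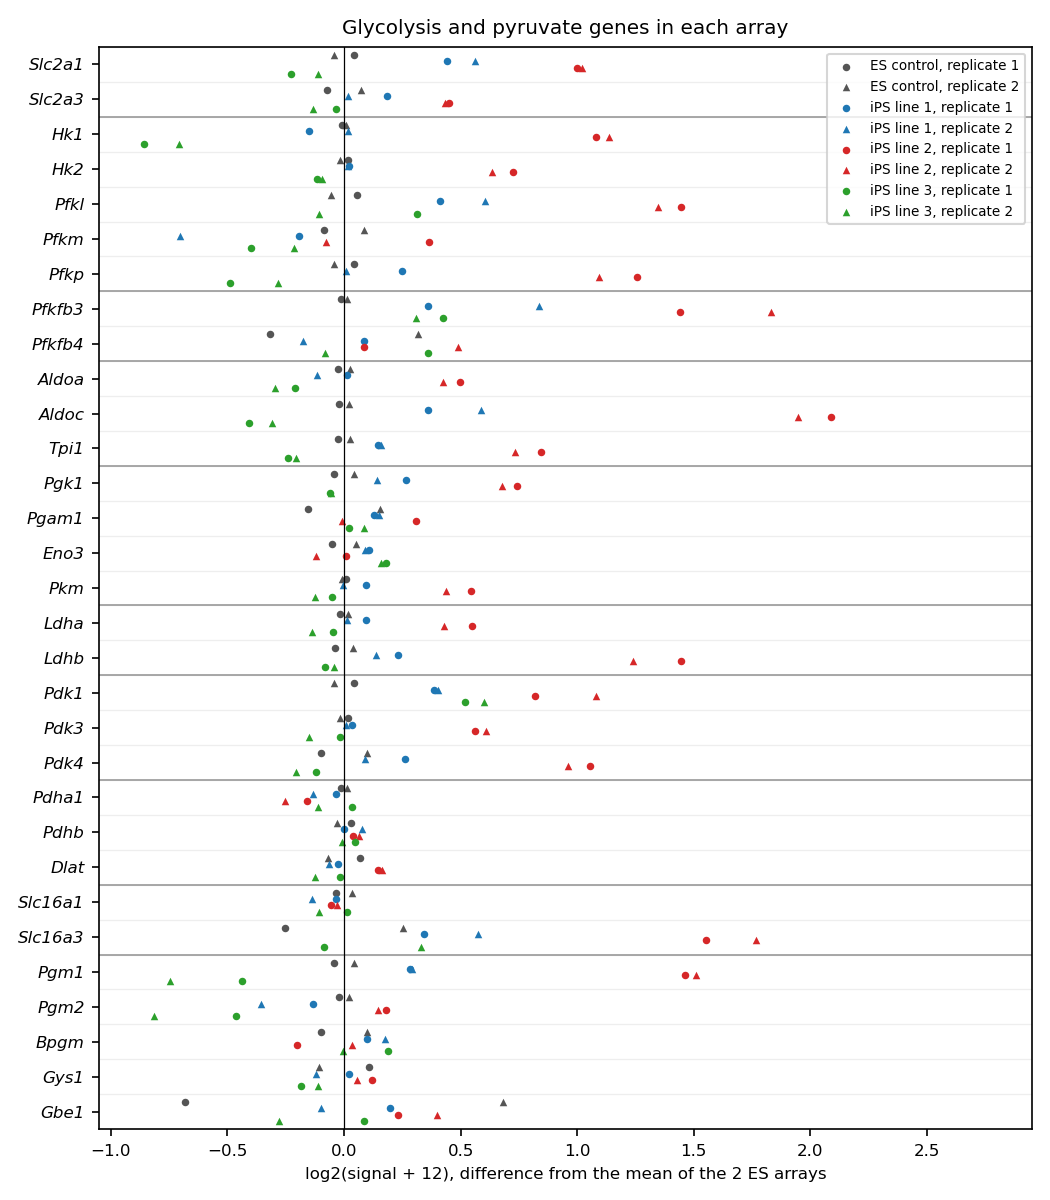
Signal of each of the 31 genes in each of the 8 arrays, as the difference of log2(signal + 12) from the mean of the 2 ES arrays; circles and triangles are replicates 1 and 2, colours are lines, and grey rules separate pathway steps. For 21 genes both line 2 arrays lie to the right of all others, and Hk1 and Pgm1 in line 3 lie to the left of ES.

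Glucose enters the cell through facilitated transporters, and both measured ones rose in line 2. Slc2a1 (GLUT1, the widely expressed basal transporter) gave signals of 8105 and 7631 in the ES control, 10698 and 11598 in line 1, 15739.5 and 15967 in line 2, and 6716 and 7286 in line 3. Both line 2 arrays were the highest, line 1 lay between line 2 and ES cells without overlap, and line 3 lay below the ES arrays. Its log2 difference from ES cells was 1.01 ± 0.06 in line 2 (2.01-fold, adjusted p = 3.98e-07) and 0.50 ± 0.06 in line 1 (adjusted p = 0.00105), and line 3 against ES cells did not pass the test (-0.17). Line 3 differed from line 1 by -0.67 (adjusted p = 0.00017). The dimmer probe sets of Slc2a1 did pass as lower in line 3 than in ES cells. In limma over probe sets they gave -0.27 (adjusted p = 0.0362) and -0.34 (adjusted p = 0.0263). Slc2a3 (GLUT3, a high-affinity transporter) rose in line 2 by 0.44 ± 0.07, and its other 3 probe sets gave 0.60 to 1.25.

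Hexokinase traps glucose as glucose-6-phosphate, and both measured isozymes rose in line 2. Hk1, the isozyme of most tissues, gave 791 and 802 in the ES control, 716 and 806 in line 1, 1699.8 and 1765 in line 2, and 434 and 483 in line 3. No arrays of line 2 or line 3 overlapped those of ES cells or line 1: line 2 was the highest and line 3 the lowest. Hk1 rose in line 2 by 1.11 ± 0.10 (2.16-fold) and fell in line 3, at -0.78 ± 0.10 (adjusted p = 0.000728), and line 3 was also below line 1 (-0.71). A far dimmer probe set of Hk1 did not pass against ES cells in limma over probe sets. It gave 0.47 in line 2 (adjusted p = 0.286) and -0.57 in line 3 (0.377). That probe set passed for line 2 against lines 1 and 3 (1.06, adjusted p = 0.00707), and line 3 minus line 1 was 0.03 (0.985). Hk2, the insulin-sensitive and often inducible isozyme, gave 6559 and 6390.4 in the ES control, 6579 and 6545 in line 1, 10702 and 10049.6 in line 2, and 5979 and 6071 in line 3. Hk2 rose in line 2, by 0.68 ± 0.06, whereas line 3 differed from ES cells by -0.10 without passing the test.

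Phosphofructokinase commits the sugar to glycolysis, and 2 of its 3 isozymes rose in line 2. Pfkp, the platelet-type subunit, gave 2815 and 2652 in the ES control, 3246 and 2749.5 in line 1, 6538 and 5843 in line 2, and 1941 and 2245 in line 3. It rose by 1.17 ± 0.09 in line 2 and fell in line 3, at -0.39 ± 0.09 (adjusted p = 0.0416). Pfkl, the liver-type subunit, gave 373 and 345 in the ES control, 480 and 551 in line 1, 997 and 930.5 in line 2, and 448 and 332 in line 3. Line 2 was again the highest (1.40 ± 0.14, 2.63-fold), while the line 3 arrays straddled the ES arrays. The muscle-type Pfkm gave 747 and 843 in the ES control, 693 and 483 in line 1, 1026 and 752 in line 2, and 599 and 682 in line 3. Its line 2 arrays overlapped the ES arrays (0.14, adjusted p = 0.592), and it passed only against lines 1 and 3 (0.52, adjusted p = 0.0161).

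Fructose-2,6-bisphosphate is the strongest activator of phosphofructokinase. Of the bifunctional enzymes that make it, 2 were among the tested members, and 1 of these rose in line 2. Pfkfb3, whose kinase activity far outweighs its phosphatase activity, gave 123 and 125 in the ES control, 162 and 231 in line 1, 357 and 472 in line 2, and 170.2 and 156 in line 3. Each iPS array exceeded both ES arrays, with line 2 the highest. The difference was 1.64 ± 0.20 in line 2 (3.11-fold, adjusted p = 7.55e-05) and 0.87 ± 0.16 in the mean of the lines, but did not pass in line 1 (0.60, adjusted p = 0.178) or line 3 (0.37, adjusted p = 0.371) alone. Pfkfb4 gave 134 and 214 in the ES control, 180.5 and 149 in line 1, 180.3 and 242 in line 2, and 221 and 159 in line 3, with every iPS line inside or overlapping the range of the ES arrays.

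Aldolase cleaves fructose-1,6-bisphosphate, and its brain-type form Aldoc had the largest rise of all members in line 2. Aldoc signals were 649 and 669.8 in the ES control, 851 and 996 in line 1, 2846 and 2578 in line 2, and 494 and 531 in line 3. The line 2 arrays stood far above the rest, line 1 lay above ES cells and line 3 below them, with no overlap between lines. Differences from ES cells were 2.02 ± 0.10 in line 2 (4.05-fold, adjusted p = 7.88e-08) and 0.47 ± 0.10 in line 1 (adjusted p = 0.0257), and -0.36 in line 3, which did not pass (adjusted p = 0.0661). Aldoa, the muscle-type form, gave 17612 and 18238 in the ES control, 18077 and 16541 in line 1, 25309.6 and 24043 in line 2, and 15471 and 14582 in line 3. It rose by 0.46 ± 0.06 in line 2 and fell in line 3, at -0.25 ± 0.06. In limma over probe sets all its probe sets rose in line 2 (0.38 to 0.68), but only the brightest passed in line 3. There the others gave -0.21 to -0.13 and, for the dimmest, 0.22 (adjusted p 0.126 to 0.287). Its probe sets carry the suffix for possible cross-hybridisation, so near-identical sequences may add to its signal. Triose phosphate isomerase, Tpi1, interconverts the cleavage products and gave 8058 and 8332 in the ES control, 9062 and 9159.9 in line 1, 14725 and 13633 in line 2, and 6929 and 7094 in line 3. It rose by 0.79 ± 0.06 in line 2 (1.73-fold) and fell in line 3, at -0.22 ± 0.06 (adjusted p = 0.0467). Over the preparatory steps as a group, 7 of 8 tested genes rose in line 2 (all genes 16.1%), 4 fell in line 3 (2.57%) and all 8 were higher in line 2 than in lines 1 and 3 (19.6%). Of the 4 falls in line 3, that of Hk1 was lost in 1 of the alternatives, those of Pfkp and Aldoa in 8 each and that of Tpi1 in 10; the calls of these last 3 genes were lost when any 1 of the ES or line 3 arrays was left out.

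**Figure D3:**
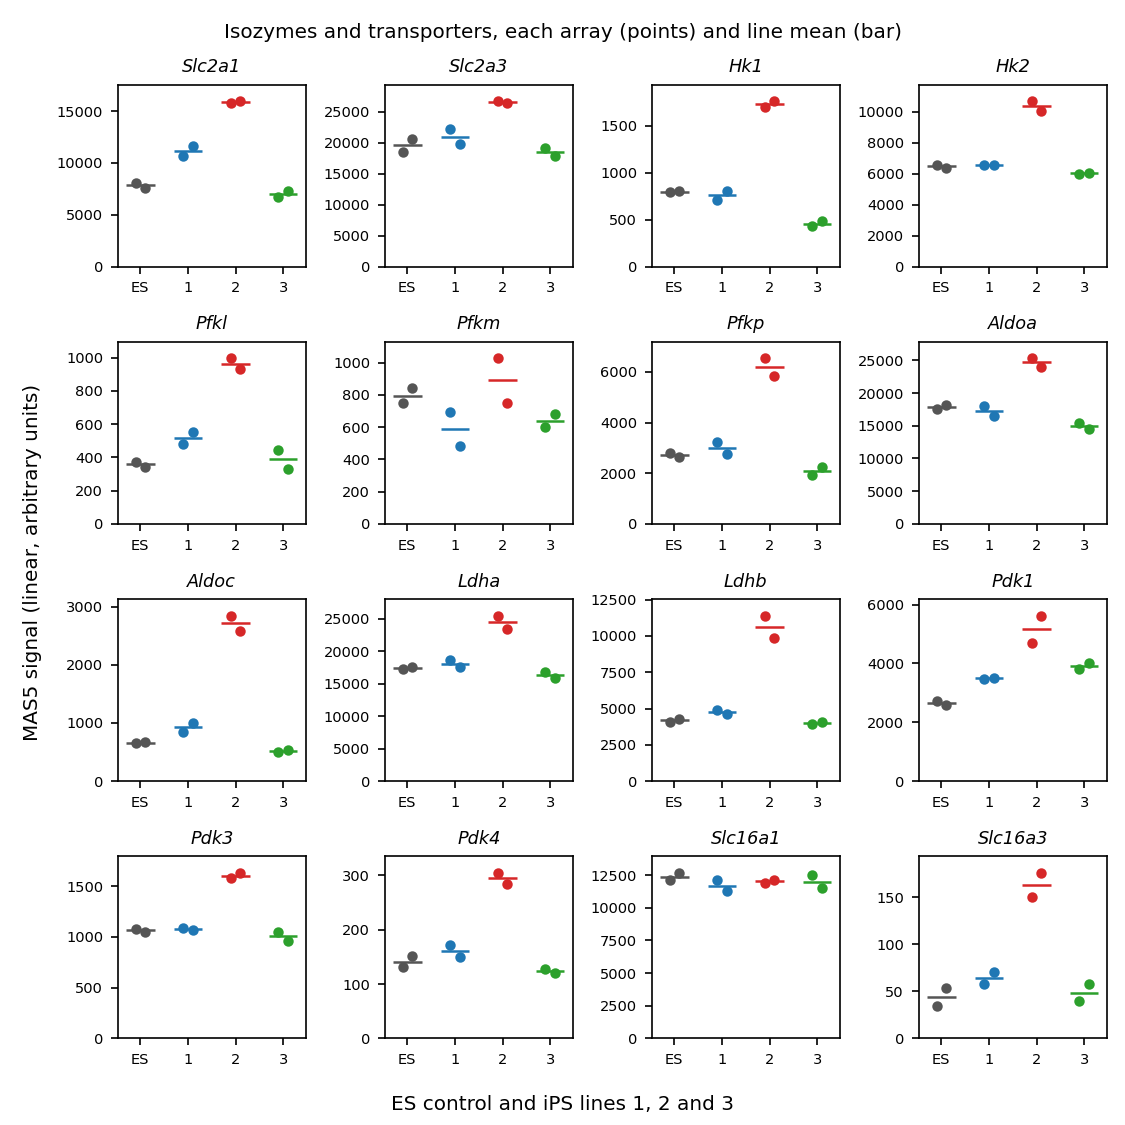
Signals (linear, arbitrary units, axis from 0) of 16 isozymes and transporters in each array (points) with the mean of the 2 arrays of a line (bar), for ES control and iPS lines 1, 2 and 3. Slc16a1 lies between 11276 and 12672 in all lines, while Slc16a3 runs from 34.4 to 176 with line 2 on top.

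Of the payoff steps 4 genes were tested, of which 2 rose in line 2 (all genes 16.1%) and none passed in line 1 or line 3 against ES cells. Phosphoglycerate kinase, Pgk1, which makes the first ATP, gave 14453 and 15296 in the ES control, 17857 and 16410.5 in line 1, 24869 and 23755 in line 2, and 14242 and 14309 in line 3. Line 2 was the highest, at 0.71 ± 0.06 over ES cells (1.63-fold), and line 3 differed from line 1 by -0.26 (adjusted p = 0.0478). Pyruvate kinase, Pkm, which makes the last ATP, rose by 0.49 ± 0.06 in line 2, and its signals ran from 4743 to 5509 in the other 6 arrays. The M1 and M2 splice forms of Pkm were not told apart here. Phosphoglycerate mutase, Pgam1, gave 10089 and 12488 in the ES control, 12282 and 12468 in line 1, 13888 and 11144 in line 2, and 11401 and 11926 in line 3, and its line 2 arrays overlapped the ES arrays (0.15, adjusted p = 0.333). Eno3, the muscle enolase, gave 438 and 472 in the ES control, 490.1 and 485 in line 1, 458 and 418 in line 2, and 516 and 509 in line 3, with line 2 overlapping the ES arrays and line 3 a little above all others (0.17, adjusted p = 0.464).

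Gapdh was not tested, and its signals are given as a description. Its 3' control probe set ran from 19441 to 24724, and a probe set annotated to Gapdh and other symbols from 20362 to 27141. The Gapdh 3'/5' ratio was 0.915 and 0.946 in line 2 and 0.856 to 0.935 in the other arrays.

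Both lactate dehydrogenase subunits rose in line 2. Ldha, the subunit that favours lactate formation, ran from 15819 to 18577 in 6 arrays and stood at 25474 and 23462 in line 2, a difference from ES cells of 0.49 ± 0.06 (1.40-fold). Ldhb, the subunit common in heart, gave 4072 and 4298 in the ES control, 4909 and 4603 in line 1, 11403 and 9882 in line 2, and 3951 and 4065 in line 3. Its rise in line 2 was 1.34 ± 0.07 (2.53-fold, adjusted p = 1.72e-07), and its probe sets gave 1.25 to 1.34. No array of line 2 overlapped another line for either gene.

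Lactate leaves or enters the cell through monocarboxylate transporters, of which 1 of 2 rose in line 2. Slc16a3 (MCT4, an exporter of glycolytic cells) gave 34.4 and 53.8 in the ES control, 58 and 70.2 in line 1, 150.2 and 176 in line 2, and 40 and 57.5 in line 3. It rose in line 2 by 1.66 ± 0.32 (3.16-fold, adjusted p = 0.00189), from ES signals on both sides of the low-signal floor. Slc16a1 (MCT1, the widely expressed form) lay between 11276 and 12672 in all 8 arrays and differed in line 2 by -0.043 ± 0.06 (adjusted p = 0.658).

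All 3 tested pyruvate dehydrogenase kinases, which phosphorylate and inactivate the complex, rose in line 2. By its brightest probe set, Pdk1 was the only member that rose in each iPS line taken alone. Its signals were 2729.9 and 2573 in the ES control, 3469.6 and 3512 in line 1, 4681 and 5625 in line 2, and 3808 and 4023 in line 3, with all iPS arrays above ES cells, line 2 the highest, and line 3 above line 1. The differences from ES cells were 0.40 ± 0.08 in line 1 (adjusted p = 0.0254), 0.95 ± 0.08 in line 2 (5.28e-06) and 0.56 ± 0.08 in line 3 (0.00233). Line 3 and line 1 did not differ past the threshold (0.16, adjusted p = 0.409), and the rise in line 1 was lost when any 1 of the ES or line 1 arrays was left out (adjusted p up to 0.504 over all alternatives). The rises in lines 1 and 3 were both lost with probe sets averaged and with no variance trend. A further probe set of Pdk1 passed in lines 1 and 3 (0.52 and 0.51). Dimmer ones passed in neither, at 0.18 and 0.21 for one and -0.38 and 0.026 for the other. Pdk3 gave 1079.8 and 1051 in the ES control, 1089.7 and 1073 in line 1, 1579 and 1632 in line 2, and 1052 and 959.6 in line 3. Pdk4, the kinase known for induction by fasting, gave 130.5 and 151 in the ES control, 171 and 151 in line 1, 305 and 285 in line 2, and 128 and 120.3 in line 3. Against ES cells both passed in line 2 alone, by 0.59 ± 0.08 and 1.01 ± 0.18.

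Of the 3 subunits of the pyruvate dehydrogenase complex none rose in line 2 and 1 fell against ES cells. Pdhb, the E1 beta subunit, lay between 9546 and 10294 in all arrays (0.051 in line 2). Dlat, the E2 subunit, lay between 1817 and 2223, did not pass against ES cells (0.16, adjusted p = 0.152) and passed against lines 1 and 3 (0.21); another, dimmer probe set of Dlat fell in line 2, at -0.53 against ES cells (adjusted p over probe sets = 0.00949) and -0.54 against lines 1 and 3 (0.00292). That probe set gave 431 and 467 in the ES control and 288 and 325 in line 2, so the direction for Dlat depends on the probe set. Pdha1, the E1 alpha subunit that the kinases phosphorylate, was the only member that fell in line 2 (-0.20 ± 0.07, adjusted p = 0.0379), with 7040 and 6587 there against 7148 to 8038 in the other arrays. That call was lost with quantile normalisation, without a filter, with probe sets averaged and with no variance trend, each taken alone, and when ES replicate 1, ES replicate 2 or line 2 replicate 2 was left out.

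On the side branches, both phosphoglucomutase genes fell in line 3 and 1 of them rose in line 2. Pgm1, which interconverts glucose-1-phosphate and glucose-6-phosphate at the gate to glycogen, gave 521 and 553 in the ES control, 657 and 659.9 in line 1, 1500.5 and 1552 in line 2, and 394 and 315 in line 3. Line 2 was the highest and line 3 the lowest, without overlap, at 1.49 ± 0.11 (2.80-fold) and -0.59 ± 0.11 (adjusted p = 0.0107) against ES cells. Pgm2 gave 1236 and 1274 in the ES control, 1142 and 978 in line 1, 1423 and 1388 in line 2, and 907 and 708 in line 3. It fell in line 3, at -0.64 ± 0.11 (adjusted p = 0.0081), and its difference in line 2 did not pass (0.16). Mouse gene names for these mutases were exchanged in past annotations; the names here are those of the array annotation and match RefSeq by gene identifier.

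The remaining side-branch genes did not pass in any comparison. Bpgm, which makes the 2,3-bisphosphoglycerate of red cells, gave 416 and 478 in the ES control, 478 and 506 in line 1, 386 and 457 in line 2, and 509 and 445 in line 3. Gys1, the muscle-type glycogen synthase, gave 363 and 311 in the ES control, 342 and 309 in line 1, 366 and 350.2 in line 2, and 295 and 310.2 in line 3. Gbe1, the glycogen branching enzyme, had signals from 37.1 to 115, and its ES arrays alone spanned that range.

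Line 3 thus had 6 members lower than ES cells: Hk1, Pfkp, Aldoa, Tpi1, Pgm1 and Pgm2. The first 5 of these had risen in line 2. The count of 6 was 1 without ES replicate 1, without ES replicate 2 or without line 3 replicate 2, 3 without line 3 replicate 1, and 0 when the variance was modelled without an intensity trend. In line 1, the 3 genes were Slc2a1, Pdk1 and Aldoc, and 1 remained past the threshold without ES replicate 1, ES replicate 2 or line 1 replicate 2, and 2 without line 1 replicate 1.

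The order of the iPS lines was shared by most members. By line means, line 2 was above line 1 and line 1 above line 3 for 24 of 31 genes (77.4%), against 30.7% of all genes tested. Of the 4 lines, line 2 was the highest and line 3 the lowest for 19 genes (61.3%, all genes 19.1%). A pair of comparisons that share no array was set side by side: line 2 minus ES cells, and line 3 minus line 1. Across the 31 members, Pearson's r between them was -0.72 and Spearman's rho -0.76, and across all 14004 genes they were -0.16 and -0.19. These are descriptions across genes measured on the same arrays, and genes are not independent replicates. Aldoc (2.02 and -0.83), Pgm1 (1.49 and -0.88), Hk1 (1.11 and -0.71) and Slc2a1 (1.01 and -0.67) had the lowest values of line 3 minus line 1, while Slc16a3 (1.66 and -0.33) and Pfkfb3 (1.64 and -0.23) followed Aldoc in line 2 minus ES cells. Pdk1 (0.95 and 0.16) had positive values in both.

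**Figure D4:**
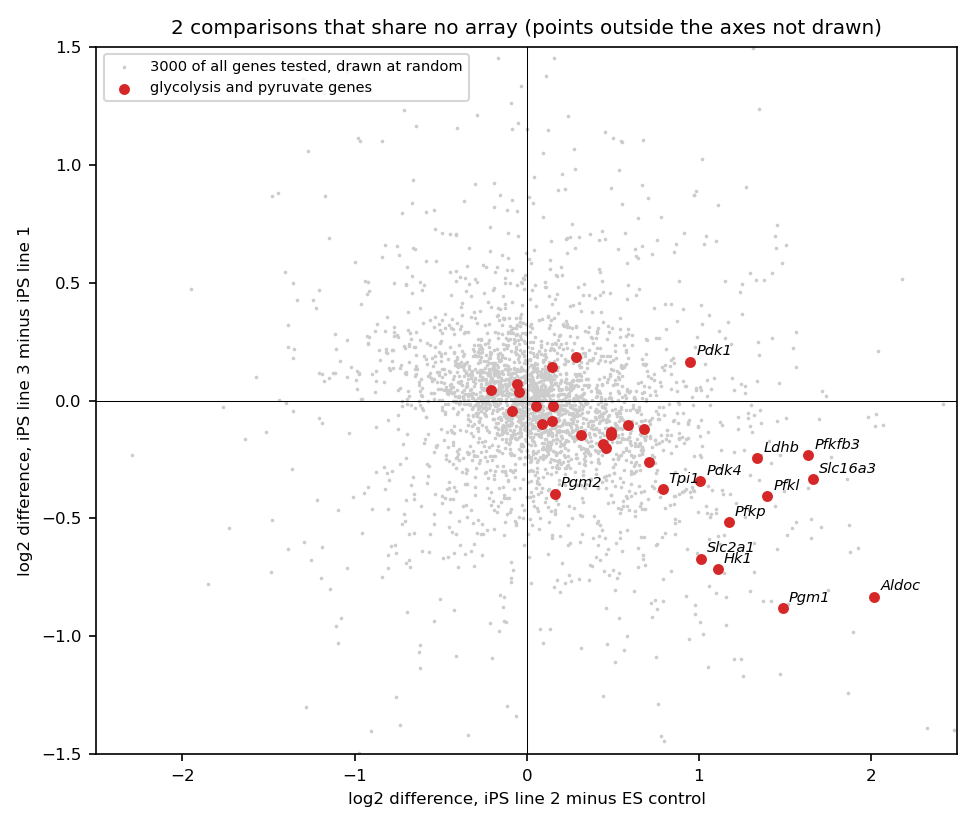
Log2 difference of line 2 from ES cells (horizontal axis) against that of line 3 from line 1 (vertical axis), for the 31 members (red) and 3000 genes drawn at random from all tested (grey; points beyond the axes are not drawn). Most members lie at the lower right, higher in line 2 and lower in line 3, with Aldoc at 2.02 and -0.83.

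Several probe sets per gene gave a check within the same arrays. For 16 members more than 1 probe set passed the filter; for 11 of these all probe sets had the same call in line 2 against ES cells, and for 14 they had the same sign. Over the 63 probe sets of the members, 40 rose and 2 fell in line 2, and 2 rose and 7 fell in line 3. Among all 25733 probe sets tested, 5474 were called in either direction in line 2 and 631 in line 3. Another probe set of Pfkl gave 0.11 in line 2, against 1.40 for the brightest one. In line 2 the probe sets of Pdk1 ranged from 0.61 to 1.11 and those of Slc2a1 from 1.01 to 1.42.

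Sequences upstream of the members were examined for the core of the hypoxia response element, because many glycolysis genes are known targets of hypoxia-inducible factor. The core was searched as ACGTG or GCGTG on both strands in the 250 bases before each annotated transcription start, in the RefSeq annotation of GRCm38.p6. The E-box CACGTG, which Myc and its relatives bind, was searched too; it reads the same on both strands and always holds ACGTG. Of the 31 tested members, 30 had an entry, all but Slc2a3. The windows of 4 genes are shown, with each match in capitals: Ldha, Pgk1 and Slc16a3, which rose in line 2, and Slc16a1, which did not.
Ldha, chr7:46845554-46845803, plus strand: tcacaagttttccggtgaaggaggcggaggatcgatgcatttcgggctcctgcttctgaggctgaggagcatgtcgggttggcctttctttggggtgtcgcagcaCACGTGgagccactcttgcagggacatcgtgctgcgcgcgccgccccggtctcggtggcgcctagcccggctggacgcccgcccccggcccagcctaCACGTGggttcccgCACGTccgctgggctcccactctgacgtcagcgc
Pgk1, chrX:106186850-106187099, plus strand: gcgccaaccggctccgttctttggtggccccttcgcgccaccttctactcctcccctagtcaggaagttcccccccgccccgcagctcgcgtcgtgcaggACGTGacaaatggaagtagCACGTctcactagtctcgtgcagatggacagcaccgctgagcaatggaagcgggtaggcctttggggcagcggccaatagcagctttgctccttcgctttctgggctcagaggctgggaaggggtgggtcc
Slc16a3, chr11:120948817-120949066, plus strand: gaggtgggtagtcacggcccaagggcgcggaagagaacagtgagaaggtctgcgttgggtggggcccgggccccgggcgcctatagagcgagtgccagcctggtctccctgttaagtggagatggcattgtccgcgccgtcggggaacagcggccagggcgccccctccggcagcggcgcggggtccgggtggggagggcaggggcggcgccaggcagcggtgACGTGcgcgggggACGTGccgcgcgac
Slc16a1, chr3:104638414-104638663, plus strand: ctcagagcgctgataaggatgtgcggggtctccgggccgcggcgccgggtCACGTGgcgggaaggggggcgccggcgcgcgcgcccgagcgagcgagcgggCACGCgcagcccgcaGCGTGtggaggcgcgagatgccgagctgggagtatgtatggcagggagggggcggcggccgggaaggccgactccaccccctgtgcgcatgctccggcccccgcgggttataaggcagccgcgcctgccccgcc
In this Ldha window the E-boxes start at -145 and -48 and a further core at -34, counted in bases from the start of transcription. The Pgk1 cores start at -150 and -131 and those of Slc16a3 at -27 and -14. The Slc16a1 window holds an E-box at -200 and cores at -149 and -134, and the gene differed by -0.043 in line 2.

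Counted by gene, 17 of the 18 members with an entry that rose in line 2 held at least 1 core, all but Tpi1. Of the other 12 members, 8 did (66.7%). Among all tested genes with an entry, 6651 of 11275 held one (59%), and among all genes of the annotation 11226 of 27025 (41.5%). By window of the same length, the shares were 31 of 41 for the members (75.6%), 53.4% for tested genes and 38.6% for all. The E-box was held by 2 of the 18 and 2 of the 12 members, and by 9.6% of tested genes. A match is a description of the letters in these windows; genes with several annotated starts have several windows and more chances of a match, and elements outside the windows were not searched.

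**Figure D5:**
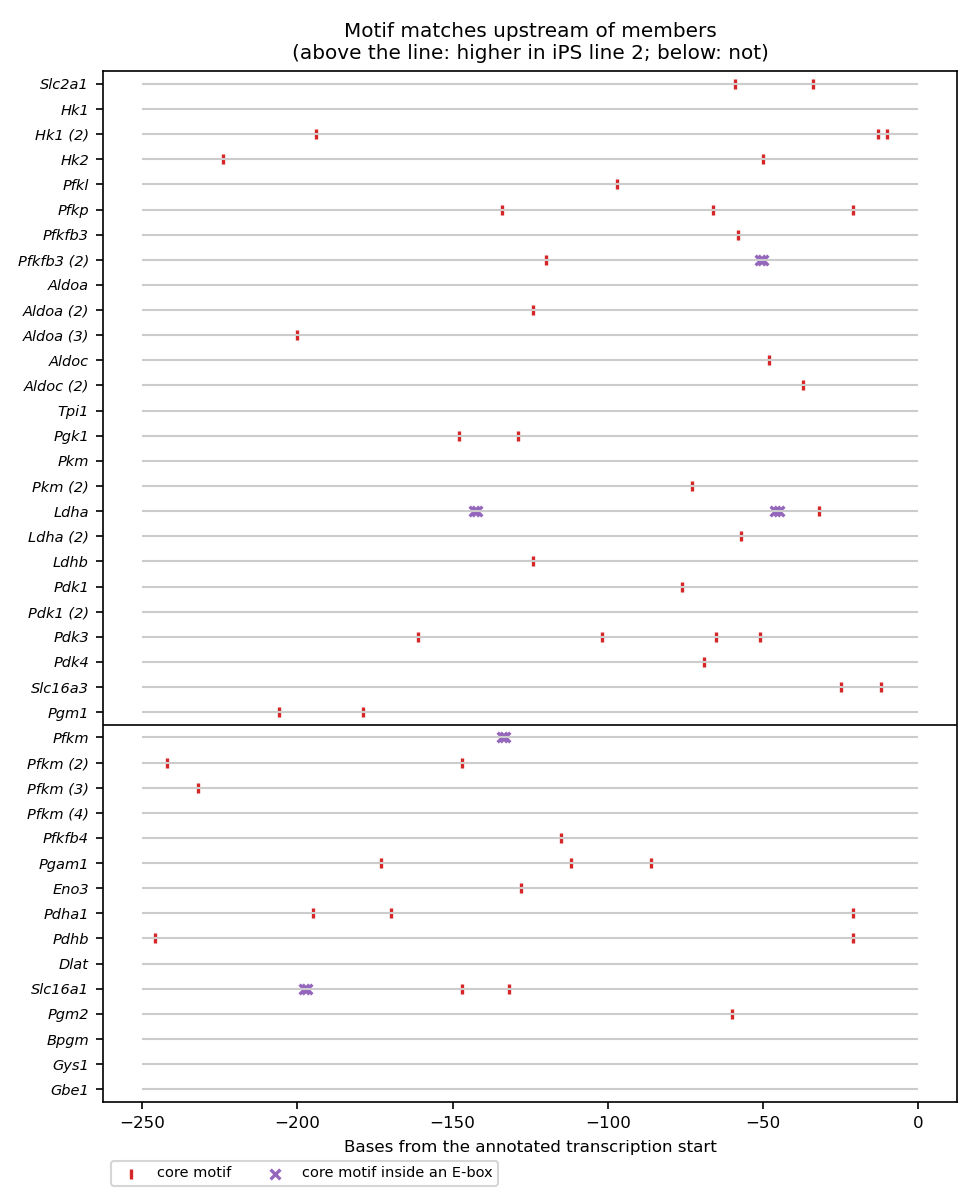
Position of each match, in bases before the annotated transcription start (0 at the right), in the 41 upstream windows of the members; red bars are cores and purple crosses are cores inside an E-box, and a number in brackets marks a further start of the same gene. Windows above the black line belong to genes that rose in line 2; matches stand on both sides of the line.

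Neighbouring pathways were described by the same fit, in which 16.1% of all genes rose and 10.6% fell in line 2. Of 26 other glycolytic isozymes and gluconeogenesis genes, 18 were tested; in the mean of the lines none passed in limma, and in line 2 only Pfkfb2, a further bifunctional enzyme, rose (1.15 ± 0.33) and Tigar, a fructose-2,6-bisphosphatase, fell (-0.31 ± 0.09). Pck2 and Pgam2 had the smallest adjusted p of the list in the mean of the lines, at 0.31 and 0.85, without passing. Of 12 tested glycogen and galactose genes (17 listed), 2 rose in line 2, a share near that of all genes: Pygl, the liver glycogen phosphorylase (2.04 ± 0.31), and Phkb, a subunit of phosphorylase kinase (0.49 ± 0.11). That share is for line 2 against ES cells. Against lines 1 and 3, 6 of the 12 were higher in line 2 and none was lower (all genes 19.6% and 12.9%). Of that list 1 gene fell in line 3 against ES cells (all genes 2.57%). Of 10 tested pentose phosphate genes (11 listed), none rose and 1 fell in line 2, Rpe, which makes xylulose-5-phosphate (-0.33 ± 0.08). Tktl1, a transketolase-like gene, fell in the mean of the lines (-1.16 ± 0.29), and Rpia (-0.24) and Pgd (-0.15 in line 2) did not pass. Of 21 tested genes of the tricarboxylic acid cycle and shuttles (22 listed), 6 rose and 2 fell in line 2 (all genes 16.1% and 10.6%), with a median of 0.092 beside 0.071 for all genes. Fh1, fumarase, rose in the mean of the lines (0.20 ± 0.05) and Sucla2, a subunit of succinyl-CoA synthetase, fell (-0.21 ± 0.05).

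Entry of pyruvate into mitochondria had 1 gene that differed alike in every iPS line. Mpc1, a subunit of the mitochondrial pyruvate carrier, gave 1929 and 1871 in the ES control, 1001 and 1010.2 in line 1, 1016 and 1013 in line 2, and 1078 and 1060.2 in line 3. Each iPS array lay far below both ES arrays, and the iPS arrays stayed between 1001 and 1078. The differences from ES cells were -0.91 ± 0.08, -0.90 ± 0.08 and -0.82 ± 0.08 in lines 1, 2 and 3. Of the 14 tested genes of pyruvate entry and disposal (16 listed), 1 rose and 2 fell in the mean of the lines (all genes 4.27% and 3.03%), and 3 rose and 1 fell in line 2 (all genes 16.1% and 10.6%). Bsg, basigin, the chaperone of the monocarboxylate transporters, rose by 0.74 ± 0.08 in line 2.

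Hypoxia-inducible genes outside glycolysis were also high in line 2 and low in line 3. Of 17 tested genes (20 listed), 12 rose and 1 fell in line 2 (all genes 16.1% and 10.6%), 6 fell in line 3 (2.57%) and 5 rose in line 1 (1.21%). Between the lines, 10 were lower in line 3 than in line 1 (all genes 1.04%). Their median was 1.65 in line 2 and -0.40 in line 3, where all genes had 0.071 and -0.0061. Ndrg1, a stress-responsive gene, gave 399 and 363 in the ES control, 809 and 795 in line 1, 4058 and 4249 in line 2, and 319 and 324 in line 3. Bnip3, a mitophagy receptor, gave 1838 and 1938 in the ES control, 3085 and 3017 in line 1, 13391 and 12054 in line 2, and 1244 and 1259.6 in line 3. Both were highest in line 2, above ES cells in line 1 and below them in line 3, as Aldoc was, at 3.41 ± 0.09 and 2.74 ± 0.07 in line 2. Between the same pair of comparisons as above, r across the 17 genes was -0.75.

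Regulators of glycolysis moved in both directions. Of 17 tested genes (18 listed), 6 rose and 5 fell in line 2 (all genes 16.1% and 10.6%). Hif1a, the oxygen-regulated subunit whose control is mostly on its protein, was lower in line 2 (-0.43 ± 0.06), and Epas1 (HIF-2 alpha) was lower in the mean of the lines (-0.57 ± 0.05). Myc, an activator of glycolytic genes, was lower in line 2 (-1.30 ± 0.17). Txnip, a brake on glucose uptake, rose in the mean of the lines (0.40 ± 0.06) and in line 2 (1.07 ± 0.08). Lin28a differed by -0.32 ± 0.08 in line 2 and 0.38 ± 0.08 in line 3, and Lin28b, with 0.99 ± 0.46 in the mean of the lines, did not pass.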

How the data were processed

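RNA of 8 samples was hybridised to Affymetrix 3' expression arrays, 2 per line. The deposited values are linear signal intensities, 1 for each probe set, from MAS5 (per the submitters' processing notes); the sources used here give no version or settings. The mean signal without the outer 2% was alike in all arrays, so the arrays shared a scale and were not rescaled. From the deposited intensities, log2(signal + 12) was taken, so log2 differences of dim genes are understated. Of 45101 probe sets, 64 controls, 932 with several symbols and 9160 without one were left out. Probe sets over 37.1 (the 40th percentile) in at least 2 arrays were kept, and the brightest stood for its gene. All 4 groups were fitted in limma 3.58.1 (R 4.3.3) with an intensity trend, with Benjamini-Hochberg adjustment of p-values over 14004 genes. A call is an adjusted p under 0.05, and values after ± are standard errors (n = 2 arrays per line). The fit was tested on simulated data. The precision is limited by the number of arrays.

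Values in every array are given for the 23 members among the 15 largest differences in any comparison with ES cells or called in line 1 or line 3, and for others where a result turned on them; of each neighbouring pathway list, the genes with the smallest adjusted p are named. The members and lists were chosen with earlier results of these data known. Promoter windows came from a RefSeq table (GRCm38.p6) by symbol. Alternatives were other pseudocounts, scalings, filters, probe set rules and variance models, a replicate block, and leaving out arrays or lines. Replicate numbers did not pair arrays of different lines (correlations of deviations -0.01 to 0.03). Protein sequences were not analysed here.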

Additional observations from a re-analysis of the deposited data

Results flagged for a closer look

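Effects of the iPS lines against ES cells differed between lines, and the difference between the lines was tested in limma with adjustment over all genes. On the log2 scale, line 2 exceeded the mean of lines 1 and 3 for 22 members. Of the glucose transporters these were Slc2a1 by 0.84 and Slc2a3 by 0.43. The preparatory enzymes were Hk1 by 1.53, Hk2 by 0.72, Pfkl by 1.09, Pfkm by 0.52, Pfkp by 1.30, Aldoa by 0.61, Aldoc by 1.96 and Tpi1 by 0.83, with the activator enzyme Pfkfb3 by 1.15. The later steps were Pgk1 by 0.64, Pkm by 0.51, Ldha by 0.51, Ldhb by 1.28 and Slc16a3 by 1.37. Of the pyruvate dehydrogenase genes, the differences were Pdk1 by 0.47, Pdk3 by 0.62, Pdk4 by 1.00 and Dlat by 0.21. Of the side branches they were Pgm1 by 1.64 and Pgm2 by 0.60.

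Line 3 minus line 1 passed for 7 members, all lower in line 3. Slc2a1 differed by -0.67, Hk1 by -0.71, Pfkp by -0.51, Aldoc by -0.83, Tpi1 by -0.38, Pgk1 by -0.26 and Pgm1 by -0.88. The call of Pgk1 was the least steady of these, lost in 14 of 19 alternatives. The groups hold 2 arrays each, so no single array was tested for lying apart.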

How the results depend on the processing

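The calls of line 2 were the steadiest: 19 of 20 against ES cells (all but Pdha1) and 20 of 22 against lines 1 and 3 (all but Pfkm and Dlat) passed under every alternative run. No call of the other 4 comparisons passed under all. Members lower in line 2 than in ES cells were 1, and 0 with quantile normalisation, no filter, the mean of all probe sets or no variance trend. Members lower in line 2 than in lines 1 and 3 were 0, and 2 with quantile normalisation, 2 with arrays centred on their median and 1 with probe sets averaged, where Dlat turned to -0.069. Members lower in line 3 than in ES cells were 6, and 3 with centring, 3 with no filter and 0 with no variance trend; the 1 higher became 0 with the mean of all probe sets or no variance trend. Without the trend, the mean of the lines had 3 higher, line 1 had 0 and line 3 against line 1 had 0 lower. The mean of the lines had 1 higher and 2 lower without iPS line 2 (all genes 1.54% and 1.96%). It had 19 higher without iPS line 3 (1211 of 14004 genes) and 0 higher with line means as samples (no gene of 14004 passed, 1 member at an unadjusted p under 0.05). Without line 2, Hk2 (-0.042), Pfkp (-0.13), Tpi1 (-0.036) and Pgm1 (-0.15) turned sign in the mean. Apart from the alternatives that left out arrays or lines, or used line means, the cause of these shifts was not tested. Centring lowered the median of all genes in line 2 against lines 1 and 3 by 0.13.

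Leaving out 1 array at a time, the mean of the lines had 5 to 11 members higher and 0 to 1 lower, line 1 had 1 to 4 higher, line 2 had 19 higher and 0 to 1 lower, and line 3 had 1 higher and 1 to 6 lower. Line 2 against lines 1 and 3 had 20 to 22 higher and 0 to 1 lower, and line 3 against line 1 had 4 to 6 lower (4 without line 1 replicate 1 or line 3 replicate 1). With a replicate block, the mean of the lines had 11 members higher, line 2 had 19 and line 1 had 3; the block ended the calls of Tpi1 in line 3 and of Pgk1 in line 3 against line 1 and no other.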

Other observations

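Some members were measured but stood outside every test. Eno2, the neuronal enolase, had signals from 9.36 to 51.9 and Pdk2, the most widely expressed pyruvate dehydrogenase kinase, from 1.61 to 26.3, mostly under the low-signal floor, so no level was assigned to either in any line.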
